A study of Mus musculus with 6 samples.

Results

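Collagen genes were examined across 3 cell subsets sorted from mouse dorsal root ganglia (DRG), where the somatic sensory neurons have their cell bodies. A row of the deposited expression table was taken as a member when its symbol consisted of Col, a number, the letter a and a number, which gave 43 of 23029 rows. Every subset came from GINIP+/mcherry animals, which carry an mCherry reporter allele at the GINIP locus beside a wild-type allele, and cells were separated by flow cytometry on GINIP and on binding of isolectin B4 (IB4). DP cells were IB4+GINIP+ and are labelled as Mrgprd+ neurons, C-LTMR cells were IB4-GINIP+ and are unmyelinated low-threshold mechanoreceptors of C-fibre type, and DN cells were IB4-GINIP- and are labelled as the remaining cells. Every subset was measured in 2 libraries (n = 2). The sources used here do not give age, sex, strain or the number of animals behind a library. Whether the libraries of a subset stem from different animals is not stated, and the p-values reflect the spread between these 6 libraries alone, which may be technical.

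Collagens are secreted or membrane-bound proteins in which alpha chains wind into a triple helix. Fibrillar collagens (types I, III and V among them) form the fibrils of connective tissue, collagen IV forms the mesh of basement membranes, collagen VI forms beaded filaments, FACIT collagens sit on the surface of fibrils, and transmembrane collagens are anchored in the plasma membrane with most of the chain outside the cell. In peripheral ganglia and nerves, fibroblasts are a main source of interstitial collagen, while Schwann cells, satellite glia and vessel walls are bounded by basement membranes that hold collagen IV.

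The 250 bases before the annotated start are shown for the 4 tested members of highest mean level whose window held no annotated exon, to give the promoter context of members that the results turn on, from a fibril-forming chain to a transmembrane chain. Sequences are from RefSeq (GRCm38.p6), 5′ to 3′ on the strand of the gene, ending at the last base before the start. Capitals mark a match to TATAAA or to CCAAT on the printed strand. Col3a1 lies upstream at chr1:45311288-45311537 (plus strand), Col28a1 at chr6:8192618-8192867 (minus strand), Col23a1 at chr11:51289670-51289919 (plus strand) and Col5a3 at chr9:20815068-20815317 (minus strand).
Col3a1: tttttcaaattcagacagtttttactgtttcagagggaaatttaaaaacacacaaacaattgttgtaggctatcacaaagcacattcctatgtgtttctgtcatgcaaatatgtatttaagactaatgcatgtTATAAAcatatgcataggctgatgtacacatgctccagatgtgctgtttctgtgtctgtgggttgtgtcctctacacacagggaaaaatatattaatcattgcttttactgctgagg
Col28a1: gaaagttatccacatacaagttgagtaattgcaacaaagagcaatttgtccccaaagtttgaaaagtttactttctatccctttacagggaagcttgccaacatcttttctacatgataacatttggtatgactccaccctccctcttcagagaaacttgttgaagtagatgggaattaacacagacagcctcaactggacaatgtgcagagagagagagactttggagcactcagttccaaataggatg
Col23a1: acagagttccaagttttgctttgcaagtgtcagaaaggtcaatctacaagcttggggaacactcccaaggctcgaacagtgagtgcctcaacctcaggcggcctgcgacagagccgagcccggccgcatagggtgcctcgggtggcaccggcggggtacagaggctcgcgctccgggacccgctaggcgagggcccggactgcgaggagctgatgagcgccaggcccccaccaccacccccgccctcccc
Col5a3: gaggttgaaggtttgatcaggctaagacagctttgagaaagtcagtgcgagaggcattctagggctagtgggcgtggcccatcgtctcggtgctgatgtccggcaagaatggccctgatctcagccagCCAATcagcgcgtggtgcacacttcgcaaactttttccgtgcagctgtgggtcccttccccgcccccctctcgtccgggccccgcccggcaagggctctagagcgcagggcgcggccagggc

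GC content of the windows was 35.2% for Col3a1, 40.4% for Col28a1, 66.0% for Col23a1 and 62.8% for Col5a3. The TATAAA match of Col3a1 spanned bases 117 to 112 upstream of the start, and the CCAAT match of Col5a3 spanned bases 122 to 118. Upstream windows in the RefSeq table matched 35 of the 43 members, with 38 windows in all. Searched on both strands, CCAAT was in 13 of the 38 collagen windows (34.2%), against 33.8% of all 32851 windows of that length. TATAAA was in 5 (13.2%), against 12.4% of all windows, and GGGCGG was in 22 (57.9%), against 32.7%. A match is a description of the letters in the window and not a binding site.

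Levels are the authors' RPKM values, scaled to gene length and to the reads of a library, which allows genes to be set beside each other per length. Estimated depth lay between 32.3 and 42.1 M reads per library, and replicate libraries correlated across genes with r of 0.984 to 0.994 on the log2 scale. The summed RPKM of 5 DP subset markers was 721 and 765 in DP and at most 37.9 elsewhere, and that of 5 C-LTMR markers was 1304 and 1306 in C-LTMR and at most 88.1 elsewhere. The 10 sensory neuron markers summed to 8855 and 6459 in DN and to between 9557 and 10291 in the other libraries. A gene entered the test when its mean RPKM over the 6 libraries was at least 0.5, which 12820 genes did. It was called when the Benjamini-Hochberg (BH) adjusted p of limma was under 0.05 and the log2 fold change, taken on log2(RPKM + 0.1), was at least 1 in size. Of the 43 members, 20 passed this filter and 23 did not, and 11 of the 20 passed only because of the DN libraries. Counts over the tested members are therefore given as descriptions. The pathway and marker lists below went through the same filter, and some of their genes also passed only because of the DN libraries. Their counts are descriptions too. The edge of the filter lay between Col14a1, with a mean of 0.543 RPKM, and Col12a1, with 0.493.

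Collagen transcripts were most abundant in the DN libraries, intermediate in DP and lowest in C-LTMR. Summed over the 43 members, collagen RPKM was 20.7 and 20.8 in the DP libraries, 7.14 and 11.4 in the C-LTMR libraries and 138 and 263 in the DN libraries. The 3 subsets did not overlap in this sum. Relative to DN, the mean sum was 10.4% in DP and 4.63% in C-LTMR. Fewer cells of a type and less RNA per cell cannot be told apart in these bulk libraries. Fibrillar genes made up 54.8% and 52.8% of the collagen sum in DP, 45.0% and 46.0% in C-LTMR and 59.6% and 69.0% in DN, and Col1a2 alone ranked first in each of the 6 libraries, with 20.8% to 42.2% of the sum.

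**Figure D1:**
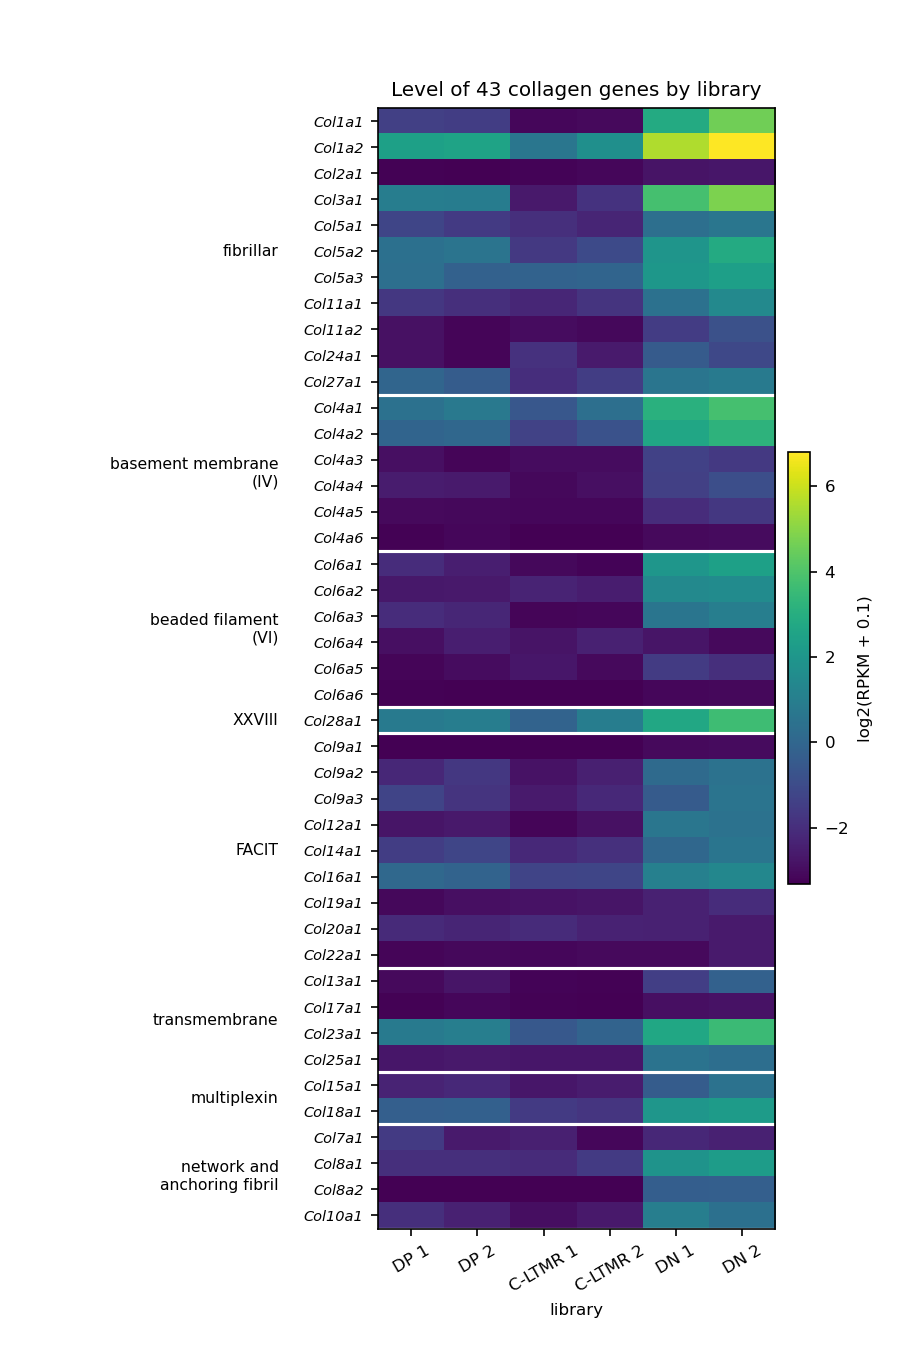
Level of each of the 43 collagen genes (rows, ordered by structural class) in each of the 6 libraries (columns), as log2(RPKM + 0.1) on the colour scale. The DN columns are the brightest for nearly every row, Col1a2 is the brightest row in every library, and 23 rows had a mean under 0.5 RPKM.

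Over all 43 members without any filter, both DN libraries lay above both DP libraries for 40 genes, and 47.2% of the 18888 rows with a value above 0 showed the same order. The DN libraries likewise lay above both C-LTMR libraries for 40 genes (42.8% of all rows) and above all 4 other libraries for 39 (36.1%). The 4 genes outside this order were Col20a1, Col22a1, Col6a4 and Col7a1, all of them low. Col20a1, a FACIT collagen, was the only member to run the other way, with 0.130 and 0.109 RPKM in DP, 0.135 and 0.0960 in C-LTMR and 0.0900 and 0.0678 in DN (26.8% of all rows had DP above DN and 29.7% had C-LTMR above DN). Both DP libraries lay above both C-LTMR libraries for 23 of 43 members (27.3% of all rows), and the reverse held for 4 members, Col19a1, Col24a1, Col2a1 and Col6a2 (34.2% of all rows).

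Among the 20 tested members, 19 were called higher in DN than in DP and none was called lower, where 22.6% of tested genes were called higher in DN and 7.66% higher in DP. In DN against C-LTMR, 20 of 20 were called higher in DN (20.3% of tested genes, while 8.43% were called higher in C-LTMR). With every expressed row entered, so that no member was removed for its level, 32 of 43 were called higher in DN than in DP (21% of rows) and 33 of 43 higher in DN than in C-LTMR (19.4%), and none lower (6.39% and 7.09% of rows). The median log2 fold change over the 43 was then 2.09 against DP and 2.45 against C-LTMR, beside 0.15 and 0.09 over all rows. In DP against C-LTMR, 9 of the 20 were called higher in DP and none lower (6.28% of tested genes were called higher in DP, and 8.41% had a higher call in C-LTMR), and the median was 0.97 against -0.05. With every expressed row entered, 8 of 43 were called higher in DP (5.28% of rows) and none higher in C-LTMR (6.88%), and the median over the 43 was 0.34 against -0.02.

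**Figure D2:**
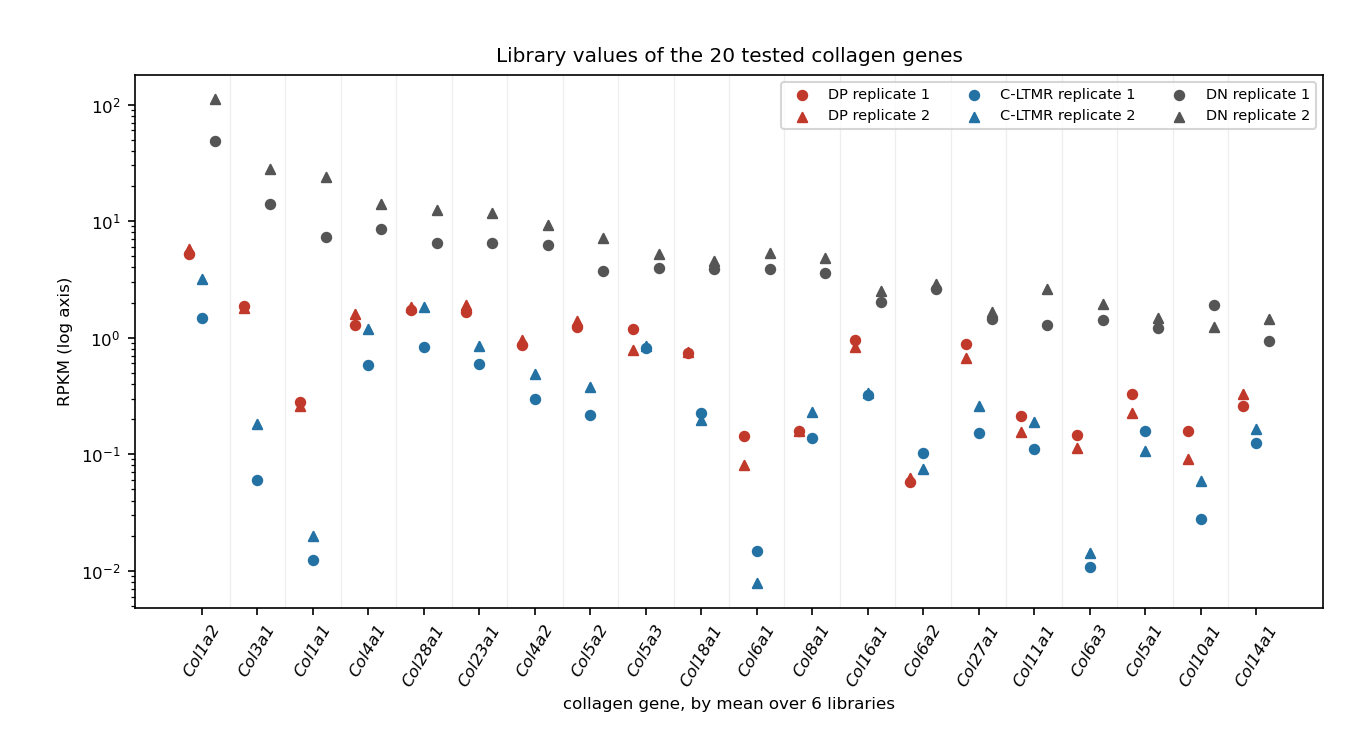
RPKM (log axis) of the 20 tested collagen genes, ordered by mean, with a point for each library, coloured by subset and shaped by replicate. For all 20 genes both DN points lie above the 4 others, while DP lies 15.2-fold above C-LTMR between means for Col3a1 and overlaps C-LTMR for Col5a3 and Col28a1.

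Among the 8 tested fibrillar genes, the chains of collagens I and III had the largest log2 fold changes between DN and the other subsets. Col1a2, which encodes the alpha-2 chain of collagen I and lies at chr6:4505697-4541543 (GRCm38), had 5.26 and 5.70 RPKM in DP, 1.48 and 3.18 in C-LTMR and 48.3 and 111 in DN. The 3 subsets did not overlap. Its log2 fold change was 3.72 (SE 0.45) in DN against DP (limma, BH-adjusted p = 0.000460) and 5.01 (SE 0.45) in DN against C-LTMR (adjusted p = 0.000122). The DP to C-LTMR difference of 1.29 (95% interval 0.22 to 2.36) did not pass at an adjusted p of 0.0707. It was called in 5 of 17 alternatives: when DN was left out of the fit, with the replicate block, and without C-LTMR-2, DN-1 or DN-2.

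Col1a1, which encodes the partner alpha-1 chain of collagen I (chr11:94936270-94951856), was far lower than Col1a2 in the GINIP+ subsets. It had 0.281 and 0.259 RPKM in DP, 0.0124 and 0.0198 in C-LTMR and 7.27 and 23.9 in DN. The C-LTMR values correspond to only about 2.52 and 3.79 reads, so fold changes against them depend on the added 0.1. The log2 fold change was 5.17 (SE 0.50) in DN against DP (limma, BH-adjusted p = 0.000174), and it was 1.67 (95% interval 0.48 to 2.87) in DP against C-LTMR (adjusted p = 0.0447). That call was lost when any of the 4 libraries compared was left out. The ratio of Col1a2 to Col1a1 RPKM was 18.7 and 21.98 in DP, 119 and 161 in C-LTMR, and 6.64 and 4.65 in DN. Col1a2 was thus measured above Col1a1 in every library, with the smallest ratios in DN. How the amplification and the gene models of the authors bear on this ratio was not tested.

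Col3a1, the chain of collagen III, which co-assembles into fibrils with collagen I, had the largest log2 fold change between DP and C-LTMR of the 20 tested members. Its RPKM was 1.87 and 1.81 in DP, 0.0601 and 0.181 in C-LTMR and 14.0 and 27.8 in DN. The DP libraries were close together and lay above both C-LTMR libraries, which were estimated to hold 11.4 and 32.5 reads of the gene. The log2 fold change was 3.19 (SE 0.37) in DP against C-LTMR (limma, BH-adjusted p = 0.000986), 3.35 in DN against DP (adjusted p = 0.000329) and 6.54 in DN against C-LTMR (adjusted p = 1.99e-05). Col3a1 was the only member called in DP against C-LTMR under each of the 17 alternatives.

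Collagen V regulates the diameter of collagen I fibrils, and of its 3 chain genes only Col5a2 was called between DP and C-LTMR. A difference between the 3 genes was not tested. Col5a2 (chr1:45374331-45503282) had 1.24 and 1.38 RPKM in DP, 0.218 and 0.379 in C-LTMR and 3.76 and 7.10 in DN. It was called higher in DP than in C-LTMR, at a log2 fold change of 1.85 (SE 0.33; limma, BH-adjusted p = 0.00632). Col5a3, whose promoter window is shown above, had 1.196 and 0.776 RPKM in DP, 0.816 and 0.854 in C-LTMR and 3.96 and 5.21 in DN. The DP and C-LTMR libraries overlapped, and their log2 difference was 0.19 (95% interval -0.38 to 0.75). Col5a1 had 0.331 and 0.226 RPKM in DP, 0.157 and 0.106 in C-LTMR and 1.21 and 1.47 in DN, and its DP to C-LTMR difference was 0.70 (0.06 to 1.34; limma, BH-adjusted p = 0.0928). All 3 chains were called higher in DN than in either other subset, at log2 fold changes of 1.90 to 2.12 against DP and 2.31 to 3.76 against C-LTMR.

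Of the minor fibrillar chains, Col27a1 was the member whose DP level came nearest to DN. Col27a1, a fibrillar collagen best known from cartilage, had 0.875 and 0.671 RPKM in DP, 0.152 and 0.257 in C-LTMR and 1.44 and 1.65 in DN. The DP mean was 50.1% of the DN mean, the highest share among the tested members, and the DN to DP log2 fold change of 0.92 (SE 0.25; limma, BH-adjusted p = 0.0185) fell short of the fold threshold. Against C-LTMR, DP was higher by 1.53 (SE 0.25; adjusted p = 0.00458). Col11a1, a chain of collagen XI, had 0.210 and 0.155 RPKM in DP, 0.110 and 0.187 in C-LTMR and 1.27 and 2.61 in DN, so the GINIP+ subsets overlapped while DN stood above both. Its DN to DP log2 fold change was 2.78 (limma, BH-adjusted p = 0.000779). The other 3 fibrillar genes (Col2a1, Col11a2 and Col24a1) did not enter the test. Col24a1 had 0.0366 and 0.0110 RPKM in DP, 0.175 and 0.0675 in C-LTMR and 0.656 and 0.354 in DN, and was thus among the few members for which both C-LTMR libraries lay above both DP libraries.

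The basement membrane genes Col4a1 and Col4a2 encode the chains of the ubiquitous collagen IV network and start next to each other head to head on chromosome 8, with 2 bases between the annotated genes. Col4a1 had 1.29 and 1.58 RPKM in DP, 0.579 and 1.18 in C-LTMR and 8.57 and 14.0 in DN. Col4a2 had 0.871 and 0.954 RPKM in DP, 0.296 and 0.487 in C-LTMR and 6.18 and 9.21 in DN. The pair was measured at similar ratios in all libraries, with Col4a1 at 1.39 to 2.43 times the RPKM of Col4a2. DN was higher than DP by 2.85 (SE 0.35; limma, BH-adjusted p = 0.000493) for Col4a1 and by 2.92 (SE 0.27; adjusted p = 0.000134) for Col4a2 on the log2 scale. Between DP and C-LTMR, Col4a2 was called at 1.07 (95% interval 0.43 to 1.71; limma, BH-adjusted p = 0.0232), and Col4a1 was not, at 0.71 (-0.12 to 1.54; adjusted p = 0.172). The 2 intervals overlap, and a difference between the 2 genes was not tested. The Col4a2 call was lost without DP-1, without DP-2 or without C-LTMR-1, where no gene of the pair was called. It was also lost with 1 added in place of 0.1 and with limma's treat, a test against the fold threshold itself.

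The 4 other collagen IV genes, whose networks are restricted to specialised basement membranes such as that of the kidney glomerulus, were all under the filter. Col4a3 had 0.0331 and 0.00909 RPKM in DP, 0.0274 and 0.0252 in C-LTMR and 0.291 and 0.221 in DN. Col4a4, its head-to-head neighbour at a gap of 71 bases, had 0.0693 and 0.0681 in DP, 0.0150 and 0.0317 in C-LTMR and 0.279 and 0.435 in DN. Col4a5, on the X chromosome, had 0.0183 and 0.0161 in DP, 0.0135 and 0.0143 in C-LTMR and 0.144 and 0.214 in DN. The DN libraries were above the others for each of these genes, at levels far under those of Col4a1. Col4a6, the neighbour of Col4a5 at a gap of 1342 bases, had 0.00357 and 0.0118 RPKM in DP, was listed at 0 in C-LTMR-1 and at 0.00051 in C-LTMR-2, and had 0.0193 and 0.0225 in DN. These values stand for no more than about 5.0 reads in any library. The Col4a3 to Col4a4 ratio ranged from 0.134 to 1.83 and the Col4a5 to Col4a6 ratio from 1.37 to 28.0 over the libraries with a value, and these ratios rest on few reads, for Col4a6 in DN as well.

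The 3 chain genes of the main collagen VI heterotrimer were low outside DN. Col6a1 had 0.142 and 0.0810 RPKM in DP, 0.0147 and 0.00779 in C-LTMR and 3.87 and 5.32 in DN. Col6a2 had 0.0574 and 0.0630 in DP, 0.102 and 0.0747 in C-LTMR and 2.64 and 2.88 in DN. Col6a3, the longest of the 3 chains, had 0.147 and 0.113 in DP, 0.0108 and 0.0143 in C-LTMR and 1.43 and 1.93 in DN. The DP means were 2.42%, 2.18% and 7.75% of the DN means. The DN to DP log2 fold changes were 4.47, 4.16 and 2.94 (limma, BH-adjusted p = 2.84e-05, 2.07e-05 and 0.000153). Of the 3, Col6a2 alone had both C-LTMR libraries above both DP libraries, with a log2 difference of -0.23 that was not called (adjusted p = 0.511). Col6a1 passed the adjusted p in DP against C-LTMR (0.0478) but not the fold threshold, at 0.91, and Col6a3 was called at 1.03 (SE 0.28; limma, BH-adjusted p = 0.0310), a call that was lost when any of the 4 libraries compared was left out. The C-LTMR libraries held only about 2.06 and 1.03 reads of Col6a1 and 3.73 and 4.66 of Col6a3. The remaining chains, Col6a4, Col6a5 and Col6a6, did not pass the filter, and Col6a4 had mean RPKM of 0.0566 in DP, 0.0683 in the C-LTMR subset and 0.0340 in DN.

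Col28a1, a collagen VI-like chain known from peripheral nerve, was among the 3 most abundant collagens of both GINIP+ subsets. It had 1.71 and 1.84 RPKM in DP, 0.829 and 1.85 in C-LTMR and 6.53 and 12.4 in DN. C-LTMR-2 was level with the DP libraries while C-LTMR-1 lay below them, and the log2 difference was 0.48 (95% interval -0.49 to 1.45). DN was higher than DP by 2.28 (SE 0.40; limma, BH-adjusted p = 0.00271) and higher than C-LTMR by 2.76 (adjusted p = 0.00121).

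Of the 4 transmembrane collagens, Col23a1 was the only gene that passed the filter. It had 1.66 and 1.89 RPKM in DP, 0.589 and 0.840 in C-LTMR and 6.42 and 11.7 in DN. The subsets did not overlap, and Col23a1 made up 9.09% of the collagen sum in DP-2. The log2 fold change was 1.22 (SE 0.30; limma, BH-adjusted p = 0.0222) in DP against C-LTMR, 2.23 (adjusted p = 0.000764) in DN against DP and 3.45 (adjusted p = 0.000108) in DN against C-LTMR. The first of these calls was lost without DP-1, without DP-2 or without C-LTMR-1, and also with 1 added in place of 0.1 and with treat. Col25a1, known for its part in motor innervation of muscle, had 0.0540 and 0.0628 RPKM in DP, 0.0546 and 0.0546 in C-LTMR and 1.35 and 1.17 in DN. Col13a1, a component of the neuromuscular junction, had 0.0184 and 0.0499 in DP, 0.00796 and 0.00342 in C-LTMR and 0.265 and 0.784 in DN. Both were low outside DN. Col17a1, the hemidesmosomal collagen of the epidermis, had mean RPKM of 0.0094 in DP, 0.00269 in the C-LTMR subset and 0.0365 in DN.

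The multiplexin Col18a1, whose C-terminal fragment is endostatin and which lies in basement membranes, had the smallest SE of the 20 tested members. Its RPKM was 0.740 and 0.752 in DP, 0.227 and 0.198 in C-LTMR and 3.87 and 4.56 in DN. DP was higher than C-LTMR by 1.44 (SE 0.18; limma, BH-adjusted p = 0.00140), and DN was higher than DP by 2.35 (SE 0.18; adjusted p = 6.84e-05). Its relative Col15a1 was under the filter, with a mean RPKM of 0.111 in DP, of 0.0607 in C-LTMR and of 0.987 in DN.

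FACIT collagens were represented in the test by Col16a1 and Col14a1. Col16a1 had 0.962 and 0.831 RPKM in DP, 0.324 and 0.334 in C-LTMR and 2.01 and 2.50 in DN. It was nearly as far above C-LTMR in DP as it was below DN, with log2 fold changes of 1.21 (SE 0.20; limma, BH-adjusted p = 0.00407) and 1.24 (SE 0.20; adjusted p = 0.00162). The DP mean was 39.7% of the DN mean, second to Col27a1. The DN to DP call was lost under quantile normalization (0.45), with a pseudocount of 1 and with treat. Col14a1 had 0.257 and 0.329 RPKM in DP, 0.125 and 0.163 in C-LTMR and 0.940 and 1.45 in DN, with a DN to DP log2 fold change of 1.70 (limma, BH-adjusted p = 0.00211) that was lost under the same 3 settings. Col12a1, a fibril-associated collagen of dense connective tissue, lay just outside the filter with 0.0487 and 0.0624 RPKM in DP, 0.01003 and 0.0370 in C-LTMR and 1.49 and 1.31 in DN.

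The network-forming genes Col8a1 and Col10a1 were called higher in DN than in either GINIP+ subset and were not called between these. Col8a1, a chain of collagen VIII of vessel walls and of Descemet's membrane in the eye, had 0.158 and 0.158 RPKM in DP, 0.137 and 0.230 in C-LTMR and 3.57 and 4.78 in DN. Its DN to DP log2 fold change was 4.03 (SE 0.26; limma, BH-adjusted p = 3.18e-05). Its values in the GINIP+ subsets overlapped. Col8a2, the partner chain, was listed at 0 in all 4 DP and C-LTMR libraries and had 0.722 and 0.730 RPKM in DN. Col10a1, the collagen of hypertrophic cartilage, had 0.159 and 0.0917 RPKM in DP, 0.0280 and 0.0594 in C-LTMR and 1.92 and 1.24 in DN. Col10a1 was the tested member with the lowest ratio of DN-2 to DN-1, 0.649. Col7a1, the anchoring fibril collagen of skin, had 0.227 and 0.0641 RPKM in DP, 0.0829 and 0.0125 in C-LTMR and 0.118 and 0.0913 in DN, a spread between replicates that covered the subsets.

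Calls in DP against C-LTMR were spread over the structural classes. The 9 members called higher in DP were 4 fibrillar genes (Col1a1, Col3a1, Col5a2 and Col27a1), Col4a2, Col6a3, Col16a1, Col18a1 and Col23a1, with log2 fold changes from 1.03 to 3.19. Of the 11 not called, 9 had a positive difference and Col6a2 and Col8a1 a negative one. The sign of Col8a1 turned when libraries were rescaled to sensory neuron markers (0.029), and that of Col11a1 turned under quantile normalization (-0.032). The number called was 5 when DP-1, DP-2 or C-LTMR-1 was left out, 1 with 1 added in place of 0.1, and 1 when limma's treat was used to test against the fold threshold itself.

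**Figure D3:**
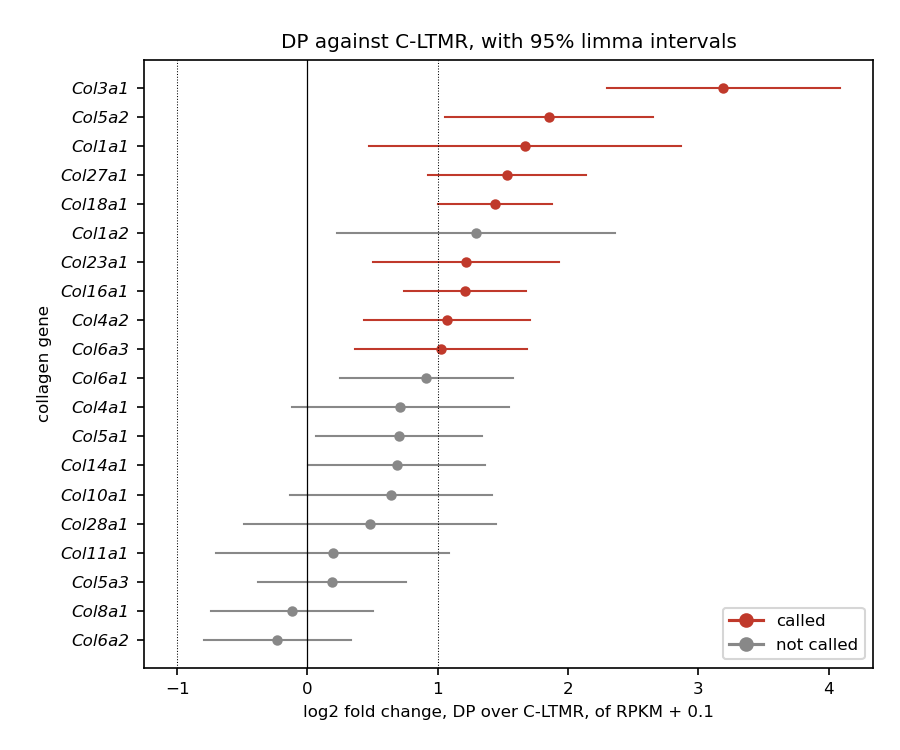
Log2 fold change of DP over C-LTMR, on log2(RPKM + 0.1), for the 20 tested collagen genes, with 95% limma intervals; red marks called genes and dotted lines the fold threshold. The 9 called genes lie at 1.03 or above, led by Col3a1 at 3.19, and the 11 others lie between -0.23 and 1.29.

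Of 25 tested genes of collagen biosynthesis and cross-linking, 14 were called higher in DN than in DP (22.6% of tested genes) and 3 lower (7.66%), and 14 higher in DN than in C-LTMR (20.3%) and 4 lower (8.43%). In DP against C-LTMR, none was called higher (6.28%) and 4 lower (8.41%), with a median log2 fold change of -0.01. Adamts3, a procollagen N-proteinase, had its highest level in C-LTMR, with 0.723 and 0.965 RPKM in DP, 5.13 and 6.06 in C-LTMR and 0.147 and 0.194 in DN. It was lower in DP than in C-LTMR by a log2 fold change of -2.60 (limma, BH-adjusted p = 0.000216), and DN was lower still, at -1.80 against DP and -4.40 against C-LTMR. Adamts2, the N-proteinase that trims procollagens I and III, was also lower in DP than in C-LTMR (-1.54, adjusted p = 0.00388), and higher in DN than in DP (3.63). P4ha2, an alpha subunit of prolyl 4-hydroxylase, was lower in DN, with log2 fold changes of -1.24 against DP and -1.95 against C-LTMR. Pcolce, the enhancer of procollagen C-proteinase, had 1.34 and 1.198 RPKM in DP, 1.33 and 1.89 in C-LTMR and 22.7 and 25.9 in DN, the largest DN to DP log2 fold change of the list at 4.16. Serpinh1, the collagen chaperone HSP47, had the largest DN to C-LTMR value, 4.08, with 6.27 and 7.52 RPKM in DP, 2.52 and 4.99 in C-LTMR and 50.1 and 75.9 in DN.

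Other basement membrane genes were also highest in DN. Of 9 tested laminins and related proteins, 9 were called higher in DN than in each other subset (22.6% and 20.3% of tested genes), and 2 were called higher in DP than in C-LTMR (6.28%). These 2 were Lamb1, a laminin beta chain, at 2.18 (limma, BH-adjusted p = 0.00364), and Lama4, a laminin alpha chain of vessels and nerve, at 1.27 (adjusted p = 0.0151). Lamb1 had 4.79 and 5.55 RPKM in DP, 0.678 and 1.62 in C-LTMR and 14.3 and 17.3 in DN. The largest DN to DP log2 fold changes in the list were those of Lamb2 (3.58) and of Sparc (3.28), a collagen-binding matrix protein. Against C-LTMR they were those of Lamb1 (3.78) and Sparc (3.76).

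Of 11 collagen receptor genes, 4 were tested, and Ddr2, a receptor tyrosine kinase for fibrillar collagen, was the only one of these 4 called. It passed the filter only because of its DN libraries. It had 0.121 and 0.101 RPKM in DP, 0.123 and 0.152 in C-LTMR and 1.62 and 2.12 in DN, with log2 fold changes of 3.21 in DN against DP (22.6% of tested genes were called higher in DN) and 3.05 in DN against C-LTMR (20.3%). Among the untested receptors, Mrc2, Itga1, Itga10 and Lair1 had both DN libraries above all others, an order seen in 36.1% of all rows. Itga11 was highest in DP, Itga2 overlapped between DP and DN, and Gp6 was at 0 throughout. Among 11 tested collagen-degrading proteases and their inhibitors, 4 were called higher in DP than in C-LTMR (6.28% of tested genes) and 1 lower (8.41%). Mmp8, neutrophil collagenase, had 1.88 and 2.03 RPKM in DP, was listed at 0 in both C-LTMR libraries and had 0.188 and 0.480 in DN. Mmp9, a gelatinase, had 0.848 and 1.14 RPKM in DP, 0.0186 and 0.00986 in C-LTMR and 0.670 and 0.375 in DN, with a DP to C-LTMR log2 fold change of 3.25 (limma, BH-adjusted p = 0.000445). Mmp15, a membrane-type protease, was the gene called lower in DP (-1.15, adjusted p = 0.000704). In DN against DP, 5 were called higher (22.6%) and 1 (Mmp8, -2.33) lower (7.66%), led by the inhibitors Timp1 (3.48) and Timp3 (3.47). In DN against C-LTMR, 7 were called higher (20.3%), led by Timp1 (4.83) and the gelatinase Mmp2 (4.75).

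Sums of fibroblast, endothelial and satellite glia markers were highest in DN. The 10 fibroblast markers summed to 12.7 and 11.9 RPKM in DP, 8.90 and 10.5 in C-LTMR and 315 and 354 in DN. The 10 endothelial markers summed to 12.2 and 9.62 in DP, 47.6 and 47.4 in C-LTMR and 391 and 646 in DN, and Egfl7 alone contributed 46.9 and 47.0 of the C-LTMR sums. The 10 satellite glia and non-myelinating Schwann cell markers, among which Ncam1 and L1cam are also neuronal, summed to 779 and 1310 in DP, 1081 and 2075 in C-LTMR and 7446 and 17304 in DN. Between DP and C-LTMR, the fibroblast sum was higher in DP, the endothelial sum was higher in C-LTMR owing to Egfl7, and the glial sums overlapped. Of the 10 endothelial markers, 4 were called higher in DP than in C-LTMR (6.28% of tested genes) and 1 lower (8.41%). Their median log2 fold change of DP over C-LTMR was 0.76. The part of these cells in the collagen differences between DN and the other subsets was not tested. Of the 10 fibroblast markers, 2 were at 0 in DP-1, 1 in DP-2, 2 in C-LTMR-1 and 1 in C-LTMR-2 (Fbln1 or Dpt in each case), and Emcn was the only endothelial marker at 0, in C-LTMR-2. Of 9 tested fibroblast markers, 8 were called higher in DN than in DP (22.6% of tested genes). In DN against C-LTMR, 8 were called higher (20.3%) and 1 lower (8.43%). Pdgfra had 0.137 and 0.124 RPKM in DP, 1.11 and 1.37 in C-LTMR and 0.464 and 0.493 in DN, and was called lower in DN than in C-LTMR (-1.21; limma, BH-adjusted p = 0.00357). Pi16 had 4.05 and 3.85 RPKM in DP, 2.36 and 1.71 in C-LTMR and 3.85 and 6.60 in DN, and was not called in DN against DP (0.35; limma, BH-adjusted p = 0.300).

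Between DP and C-LTMR, the marker lists did not all run in the direction of the collagens. The 10 pericyte and smooth muscle markers summed to 11.1 and 15.96 RPKM in DP, 1.60 and 2.97 in C-LTMR and 55.5 and 90.7 in DN, and 5 of the 8 tested were called higher in DP than in C-LTMR, where 6.28% of tested genes were. Pdgfrb, called in this comparison, had 3.93 and 4.17 RPKM in DP, 0.410 and 0.582 in C-LTMR and 2.25 and 3.21 in DN, while Kcnj8, at 0 in both C-LTMR libraries, was not called (0.28; limma, BH-adjusted p = 0.677). Fibroblast markers had 2 of 9 called higher in DP and 1 (Pdgfra) lower, against 6.28% and 8.41% of tested genes, and satellite glia markers 1 of 9 higher. Of the 10 myelinating Schwann cell markers 2 were called higher and 2 lower, with sums of 566 and 543 in DP, 1356 and 1313 in C-LTMR and 1612 and 1526 in DN. The 10 macrophage markers summed to 2.66 and 3.50 in DP, 1.23 and 1.64 in C-LTMR and 5.81 and 4.66 in DN. Of the 3 tested, 2 were called higher in DP than in C-LTMR (6.28% of tested genes) and 3 higher in DN than in DP (22.6%). Of the markers that were not tested, C1qa, C1qc, Emr1 and Cx3cr1 were instead higher in both DP libraries than in both DN libraries (26.8% of all rows). Mrc1 was higher in both DN libraries than in both DP libraries (47.2%), and Csf1r and Cd163 overlapped between DP and DN. All of these were low. The part of pericytes or other cells in the 9 collagen calls was not tested.

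As a share of the DN mean, the tested collagens ranged in DP from 1.73% (Col1a1) to 50.1% (Col27a1), with a median of 12.3%, and in C-LTMR from 0.103% (Col1a1) to 18.2% (Col5a3), with a median of 5.29%. The marker sums on the same scale were 3.68% and 2.91% for fibroblasts, 8.44% and 12.8% for satellite glia, 18.5% and 3.12% for pericytes and smooth muscle, and 2.10% and 9.15% for endothelium, in DP and C-LTMR respectively. The endothelial sum in C-LTMR was almost all Egfl7, which stood at 10.7% in DP and 69.1% in C-LTMR. Every other endothelial marker had a lower share in C-LTMR than in DP. These shares were at most 5.30% in DP (Tek) and 1.06% in C-LTMR (Pecam1).

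**Figure D4:**
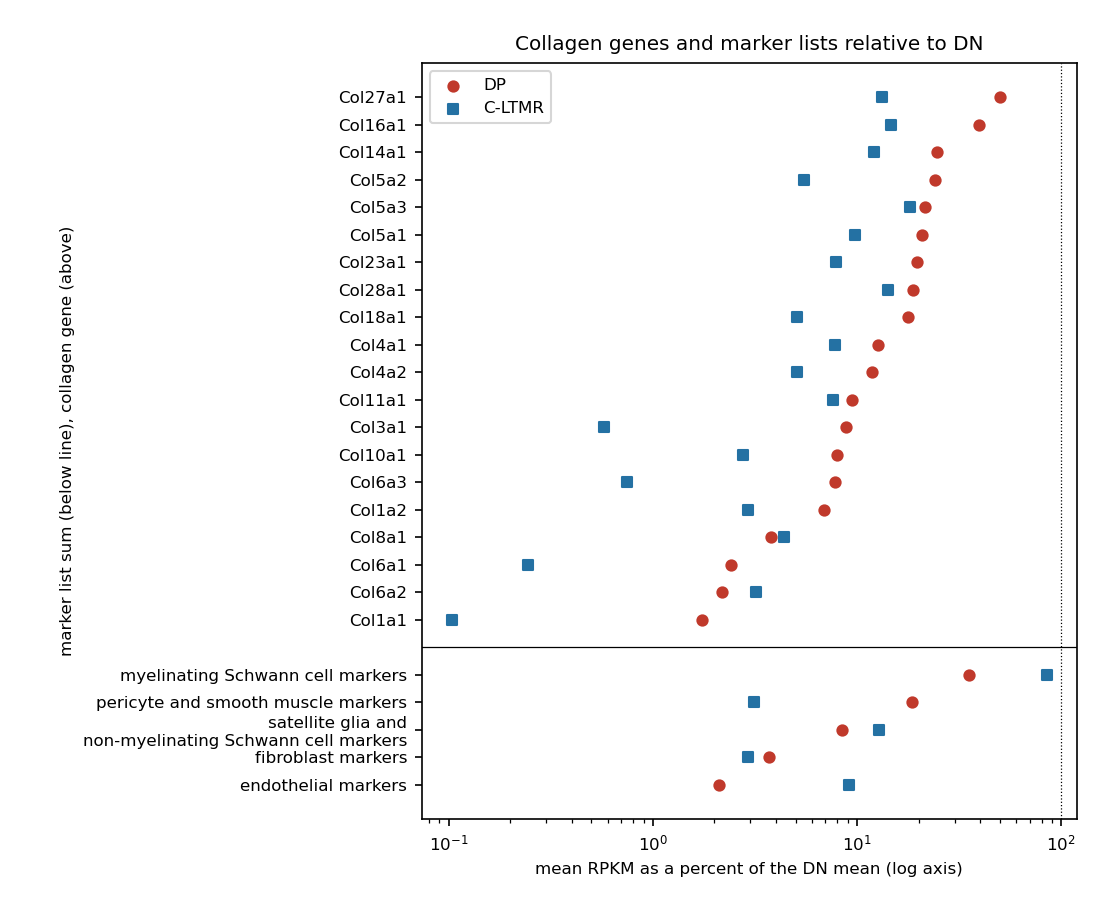
Mean RPKM in DP (circles) and C-LTMR (squares) as a percent of the DN mean (log axis), for the 20 tested collagen genes above the line and the summed markers of 5 cell types below it. Collagen shares in DP spread from 1.73% to 50.1%, and fibroblast markers lie at 3.68%. The endothelial sum in C-LTMR is almost all Egfl7.

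The DN libraries differed from each other in collagen level. DN-2 exceeded DN-1 for 34 of 43 members (79.1%), against 43.8% of the 12820 genes over the filter, and the median ratio was 1.32 among members and 0.97 among all genes. The ratio of DN-2 to DN-1 was 3.29 for Col1a1, 2.30 for Col1a2, 1.99 for Col3a1, 1.90 for Col28a1 and 1.83 for Col23a1, while it was 1.09 for Col6a2 and 1.37 for Col6a1. On the same ratio, marker sums stood at 2.32 for satellite glia, 1.65 for endothelium, 1.64 for pericytes and smooth muscle, 1.12 for fibroblasts, 0.947 for myelinating Schwann cells, 0.803 for macrophages and 0.729 for sensory neurons. Single fibroblast markers ran from 0.819 (Mfap5) to 2.85 (Lum), and Dcn, the largest part of that sum, stood at 1.09. The list of laminins and other basement membrane proteins stood at 1.94, a sum made up mostly of Sparc (1.98). Its other tested genes lay between 1.11 (Agrn) and 1.87 (Nid2), and the tested laminin chains between 1.21 (Lamb1) and 1.61 (Lamc1). C-LTMR-2 likewise exceeded C-LTMR-1 by a ratio of 3.01 for Col3a1, 2.23 for Col28a1, 2.14 for Col1a2 and 2.04 for Col4a1. The DP libraries were closer, with ratios between 0.572 and 1.28 over the tested members. With either DN library left out, 19 or 20 of the 20 tested members were still called higher in DN than in DP.

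The 23 members under the filter were low in DP and C-LTMR, while in DN some reached the level of tested members (Col12a1, Col25a1 and Col9a2 had means of 1.40, 1.26 and 1.17 RPKM). Their means ranged from 0 to 0.250 RPKM in DP, from 0 to 0.121 in C-LTMR and from 0.0152 to 1.40 in DN. With the filter removed, 13 of the 23 were called higher in DN than in DP (21% of all rows) and 13 higher in DN than in C-LTMR (19.4%), and none was called between DP and C-LTMR (5.28% and 6.88%). Besides Col8a2, Col9a1 was listed at 0 in all 4 DP and C-LTMR libraries, with 0.0198 and 0.0239 RPKM in DN. In all, 37 of 43 members were above 0 in every library.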

How the data were processed

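RNA of 6 sorted libraries was measured, 2 from each subset. Per the labels' protocols, sorting was into lysis buffer, RNA (50 ng) was amplified by an amino allyl kit, and TruSeq libraries were prepared. Per the submitters' processing notes, CASAVA 1.8.2, edgeR 2.6.2 and the build GRCm38 (mm10) were used. The sources used here do not give aligner settings, gene models or strand use. The authors deposited RPKM for 23029 genes, and a second table of TMM-normalized values (a signal that is not whole numbers) for 6620 genes, which holds 7 of the 43 collagen genes and was used as an alternative. The listed names Col21a1 and Col26a1 have no row. All 43 members matched a RefSeq gene by Entrez ID, symbol and position.

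Depth (42.1 and 38.3 M reads in DP, 34.2 and 32.3 in C-LTMR, 39.0 and 32.3 in DN) was estimated from the steps between low RPKM values. Only 23.0% of low genes gave whole multiples within 0.04 of a read, so no count model was run. Read numbers per gene are estimates from the longest GENCODE transcript.

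One limma 3.58.1 fit (R 4.3.3; lmFit, contrasts.fit, eBayes with trend) of log2(RPKM + 0.1) covered all 6 libraries, with 3 residual degrees of freedom and BH adjustment over 12820 genes. Fold changes on this scale understate the change of low genes. The fit was tested on simulated data with 200 changed genes. Library values are given for members called in at least 1 comparison or with a mean of at least 1 RPKM, and for the head-to-head collagen IV pairs. Values of some lower members (Col20a1, Col24a1, Col25a1, Col13a1, Col12a1, Col8a2, Col7a1, Col9a1 and Col9a2) were added after they were seen, as were those of the markers Egfl7, Pdgfrb, Kcnj8, Fbln1, Dpt, Emcn, Pdgfra, Pi16, C1qa and C1qc. The same holds for the markers Tek, Pecam1, Dcn, Lum and Mfap5 and for the replicate ratios of Agrn, Nid2 and Lamc1. It also holds for the order of the subsets in the untested macrophage markers and collagen receptors. From each pathway list the 2 called genes of largest change in each direction are named. Members and lists were chosen with earlier results of these data known. Alternatives varied the pseudocount, filter, scaling, table, libraries in the fit, replicate block, test and each library in turn. Python 3.11.15 with numpy 2.4.6, pandas 2.3.3 and matplotlib 3.10.9 made sums and plots.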

Additional observations from a re-analysis of the deposited data

How the results depend on the processing

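Every called collagen difference kept its direction under the 17 alternatives (fewer for members absent from a table). In DP against C-LTMR, the 1883 genes called became 1191 with a pseudocount of 1, 843 in the TMM-normalized table and 801 with treat. The collagen count of 9 became 1, 4 (of the 7 listed) and 1 under these settings, and ranged from 5 to 10 with a library left out. In DN against DP, the TMM-normalized table gave 1645 genes in place of 3876 and 7 collagens in place of 19, the unfiltered table gave 32 collagens, and leaving out a library gave 3706 to 4078 genes and 19 to 20 collagens. In DN against C-LTMR, the TMM-normalized table gave 1562 and treat 2428 genes in place of 3680, and the collagen count of 20 became 33 unfiltered, 13 at a mean RPKM of at least 1 and 7 in the TMM-normalized table. The smaller table and the stricter filter hold fewer genes; the other causes were not tested.

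Scaling moved the split of calls. Quantile normalization gave 2213 higher and 1994 lower in DN against DP, and 2094 and 2003 in DN against C-LTMR (medians of -0.16 and -0.17). Rescaling to sensory neuron markers gave 4159 and 622, and 4665 and 549 (medians of 0.60 and 0.74), and 983 and 817 in DP against C-LTMR (median 0.17). The main splits were 2894 and 982, 2599 and 1081, and 805 and 1078. Collagen calls under these scalings were 17 and 20 against DP, 20 and 20 against C-LTMR, and 7 and 7 for DP against C-LTMR.

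The sign turned only for members not called in DP against C-LTMR. Col8a1 was 0.029 rescaled to sensory neuron markers, and -0.35 to 0.12 with a library left out (positive without C-LTMR-2). Col11a1 was -0.032 under quantile normalization, and -0.030 to 0.42 with a library left out (negative without C-LTMR-1). Col28a1 ranged from -0.054 (without C-LTMR-1) to 1.01, and Col5a3 from -0.094 (without DP-1) to 0.47. The calls of Col5a2, Col16a1, Col18a1 and Col27a1 in this comparison were lost with a pseudocount of 1 and with treat, and under no other alternative. Col1a1 was called in 7 of 17 settings and Col6a3 in 7 of 15. In DN against DP, Col5a1 was lost with a pseudocount of 1 and Col5a2 with treat, and Col27a1, not called, was called in 3 of 15.

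Libraries of the same number share only a number in the labels. Their deviations correlated at 0.40, 0.11 and 0.29, and a replicate block gave 10 (Col1a2 added), 19 and 20 collagen calls and 1940, 3896 and 3692 calls in all. With 2 libraries per subset, leaving out a library assumes that the lone one varies like the others. At about 32 to 42 M reads, C-LTMR values of Col1a1, Col6a1 and Col6a3 rest on under 5 reads.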
